A study of Mus musculus with 28 samples.

Results

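The genes described here are 5 targets through which canonical WNT signalling limits or shapes itself (Axin2, Sp5, Notum, Nkd1 and Lgr5), the 4 genes of the TCF/LEF transcription factors (Lef1, Tcf7, Tcf7l1 and Tcf7l2) and Ctnnb1, which encodes beta-catenin. They were taken by symbol, 10 of the 30386 genes in the deposited expression table. Earlier results of these data were known when they were chosen, so counts of calls among them are descriptive. RNA came from E14, a single mouse embryonic stem cell line, grown on gelatin in N2B27 medium and read by 3′ digital gene expression sequencing, which counts the ends of polyadenylated transcripts. 2iL is a mixture of the GSK3 inhibitor CHIR99021, the MEK inhibitor PD0325901 and the cytokine LIF.

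Each of 7 groups held 4 libraries, and experiments 1 to 4 each supplied 1 library to every group. The groups were cells kept in 2iL, cells without it for 24, 48, 96 or 120 h, and cells that went 48 or 96 h without it before 2iL was put back for 24 h (48 h + 2iL and 96 h + 2iL). The labels' treatment text names collection times up to 96 h, and the 120 h group is given by the titles and the design. All components of 2iL were removed and returned together, so the effects of GSK3 inhibition, MEK inhibition and LIF cannot be told apart. The 96 h + 2iL and 120 h groups are the same age, and no withdrawn group of the age of 48 h + 2iL was analysed here.

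In canonical WNT signalling a destruction complex built on Axin and Apc holds beta-catenin while GSK3 marks it for degradation. WNT ligands, or a chemical inhibitor of GSK3, let beta-catenin build up, enter the nucleus and bind TCF/LEF proteins at their target genes. In embryonic stem cells Tcf7l1 acts mainly as a repressor, also of genes of the naive state, and beta-catenin relieves that repression. Axin2, Notum and Nkd1 are induced by the pathway and dampen it.

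Each library held between 1554830 and 2828694 gene counts. The naive markers Zfp42, Nanog, Esrrb, Klf4 and Tfcp2l1 summed to between 1453 and 1669 CPM (counts scaled to a common library total) in 2iL and to between 41.0 and 57.4 CPM at 120 h. The fibroblast markers Col1a1, Col1a2, Col3a1, Dcn, Lum and Thy1 were detected in every group, at 96.5 to 419 CPM in sum, and their part in the results was not tested. Fewer cells of a type and less RNA per cell cannot be told apart in these bulk libraries. Experiment 3 stood apart. At 96 h its neural markers (Sox1, Pax6, Zic1 and Pou3f2) summed to 185 CPM, against 28.7 to 57.2 CPM in the other experiments. In 96 h + 2iL its naive markers summed to 59.4 CPM against 171 to 361 CPM, and its neural markers to 437 CPM against 100 to 297 CPM. Where leaving out the 96 h or 120 h library of experiment 3 moved a value given here by over 1.5 times, the value without it is given too.

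TCF/LEF proteins bind sites with the core CTTTGAT. Promoter sequences are shown for Sp5 and Axin2, which fell at 24 and 48 h without 2iL and rose on its return, and for Lef1, the TCF/LEF gene that rose most against 2iL. They are RefSeq windows on GRCm38.p6 from 250 bases before to 50 bases after a start site. Capitals mark matches to CTTTGAT, or to the shorter CTTTGA that lies within it, on either strand (reverse complements ATCAAAG and TCAAAG). The windows are Sp5 at chr2:70474673-70474972, Axin2 at chr11:108920099-108920398 and 1 of the Lef1 start sites at chr3:131156044-131156343, all on the plus strand and written 5′ to 3′.
Sp5: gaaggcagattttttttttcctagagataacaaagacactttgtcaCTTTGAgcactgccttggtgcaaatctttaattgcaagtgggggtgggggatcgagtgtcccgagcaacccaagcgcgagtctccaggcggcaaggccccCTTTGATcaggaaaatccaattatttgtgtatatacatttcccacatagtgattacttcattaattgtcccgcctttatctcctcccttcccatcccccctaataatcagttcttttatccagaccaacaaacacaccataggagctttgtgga
Axin2: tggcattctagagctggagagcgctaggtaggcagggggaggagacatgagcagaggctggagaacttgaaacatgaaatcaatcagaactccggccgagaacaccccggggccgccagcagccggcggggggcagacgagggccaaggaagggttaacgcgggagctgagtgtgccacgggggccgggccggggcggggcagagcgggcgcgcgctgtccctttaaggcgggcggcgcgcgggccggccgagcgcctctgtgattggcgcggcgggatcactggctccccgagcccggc
Lef1: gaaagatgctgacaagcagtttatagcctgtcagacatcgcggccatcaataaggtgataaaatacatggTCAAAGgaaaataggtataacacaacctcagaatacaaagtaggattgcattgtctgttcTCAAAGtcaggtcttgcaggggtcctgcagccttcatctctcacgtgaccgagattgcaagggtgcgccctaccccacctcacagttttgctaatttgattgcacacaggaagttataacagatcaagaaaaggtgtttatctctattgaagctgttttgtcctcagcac
The Sp5 window holds CTTTGAT beginning 104 bases before the start site and CTTTGA beginning 204 bases before it. The Lef1 window shown holds TCAAAG at 180 and 120 bases before the start. It is 1 of 4 Lef1 windows and starts inside the gene. The other Lef1 windows, which include those at the gene's 5′ end (starting at 131110047 and 131110073), hold neither string, and the Axin2 window holds neither. Of the 10 genes 8 matched a window, and Notum and Lgr5 did not. Among those 8 genes Sp5 alone had the longer string, as did 1160 of 27025 genes with a window (4.29%). Sp5 and Lef1 had the shorter one, as did 4911 genes (18.2%). Counted by window, the longer string is in 1225 of 32851 (3.73%) and the shorter one in 5257 (16%). A match describes letters in this window and does not show a bound site.

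Axin2 and Sp5 were low at 24 and 48 h without 2iL and overlapped the 2iL range again after 24 h of its return. Both were also higher at 120 h without 2iL than at 24 and 48 h, and Axin2 then overlapped 2iL. Nkd1 behaved differently. It had few counts in 2iL, rose late in withdrawal and was highest in 96 h + 2iL, at 55.4 times its 2iL level. Among the transcription factors, Lef1 rose from 48 h on, Tcf7l1 was highest at 24 h and lowest in 96 h + 2iL, and Tcf7l2 was not called in any comparison. The plot of all 10 genes shows every library.

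**Figure D1:**
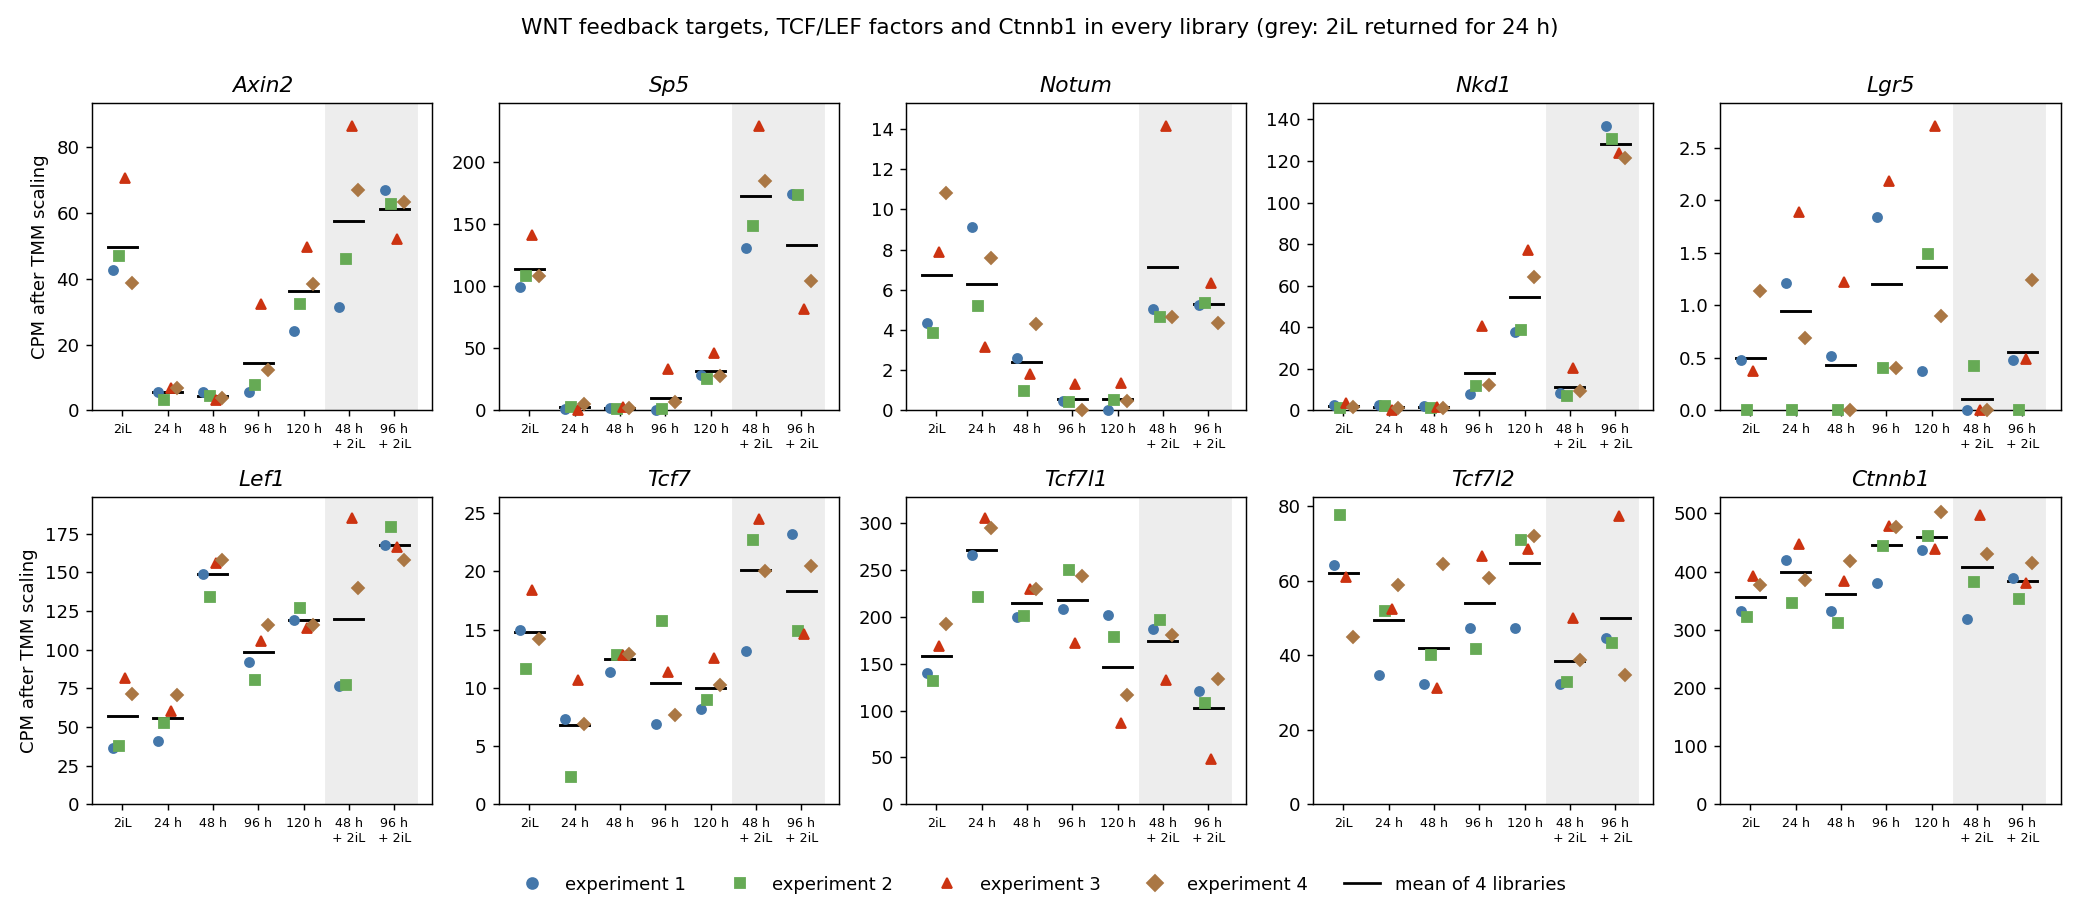
TMM-scaled CPM of each of the 10 genes (vertical axis, starting at 0) in the 7 groups (horizontal axis), with 1 symbol per experiment and a bar at the group mean. Axin2 and Sp5 are low at 24 and 48 h in every library, and at 96 h the library of experiment 3 lies above the others for Axin2, Sp5 and Nkd1.

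Of the 10 genes 9 passed the filter on low counts, and a gene is said to have risen or fallen where its Benjamini-Hochberg adjusted p over 11080 genes was under 0.05 in edgeR's quasi-likelihood test. Against 2iL, 4 of the 9 were called at 24 h, where 16% of all genes tested were called. The counts were 3 at 48 h (27.8% of all genes), 6 at 96 h (41.1%) and 5 at 120 h (47.3%). Between successive times, 1 was called from 24 to 48 h (6.57%), 3 from 48 to 96 h (21.5%) and 1 from 96 to 120 h (1.14%). With experiment as a block the counts were 5 at 48 h against 2iL (30.6% of all genes tested), 6 from 48 to 96 h (24.8%) and 3 from 96 to 120 h (5.23%). Against 2iL, the share of the 9 genes called lay near the background share at 48 h (33.3%) and at 120 h (55.6%).

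On return of 2iL, 3 of the 9 were called in 48 h + 2iL against 48 h (14.9% of all genes tested) and 6 in 96 h + 2iL against 96 h (9.24%). Against 120 h, 96 h + 2iL had 3 calls (2.63%). Against cells never withdrawn, 2 were called in 48 h + 2iL (11.6%) and 3 in 96 h + 2iL (41.0%), and 2 differed between the 2 returned groups (24.1%). For 96 h + 2iL against 2iL the share of the 9 genes (33.3%) lay below the background share. Between the returned groups (22.2%) it lay near that share. The median log2 fold change of the 9 genes was -0.33 at 24 h against 2iL, beside 0.011 over all genes tested. It was 0.69 in 48 h + 2iL against 48 h, beside -0.00046, and 0.80 in 96 h + 2iL against 96 h, beside 0.00092.

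**Figure D2:**
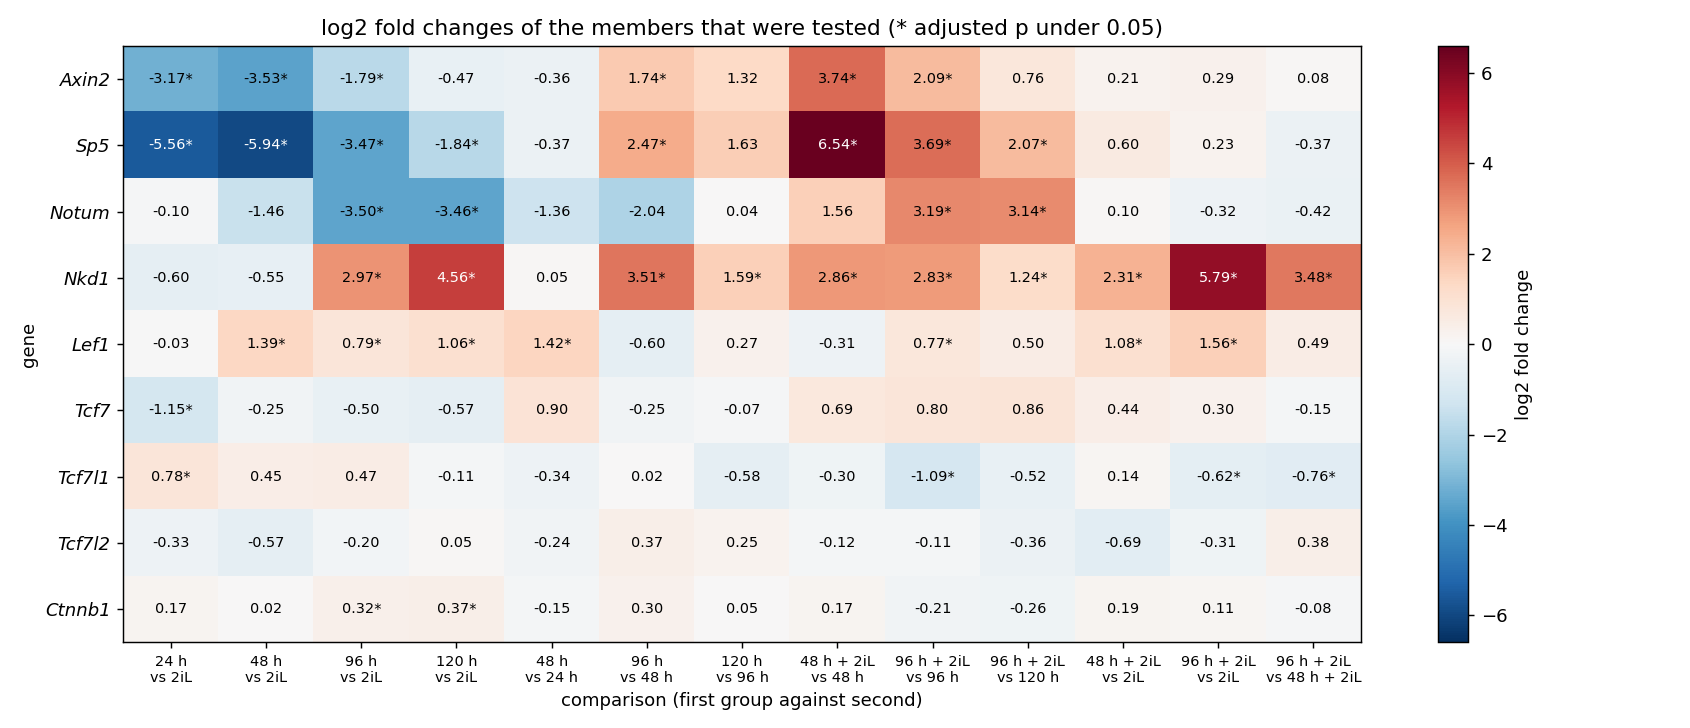
Heat map of log2 fold changes of the 9 tested genes (rows) in the comparisons (columns), with colour giving the log2 fold change and an asterisk an adjusted p under 0.05. The strongest falls are those of Sp5 at 24 and 48 h against 2iL (-5.56 and -5.94), and the strongest rises are those of Sp5 in 48 h + 2iL against 48 h (6.54) and of Nkd1 in 96 h + 2iL against 2iL (5.79).

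Axin2 (chr11:108920349-108950783, plus strand) encodes a scaffold of the destruction complex and is a widely used readout of the pathway. In 2iL its level in experiments 1 to 4 was 42.5, 46.8, 70.6 and 38.6 CPM (49.6 ± 14.4, SD, n = 4). At 24 h it was 5.47, 3.30, 6.93 and 6.91 CPM, and at 48 h it was 5.70, 4.44, 3.05 and 3.68 CPM. Every library at these times lay below every 2iL library, and Axin2 fell by 8.98-fold at 24 h (log2 fold change -3.17 ± 0.41, SE; adjusted p = 1.11e-06) and by 11.5-fold at 48 h (-3.53 ± 0.42, adjusted p = 6.95e-08).

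Axin2 then came back without 2iL. At 96 h it was at 5.50, 7.68, 32.3 and 12.2 CPM, still below every 2iL library (log2 fold change -1.79 ± 0.34, adjusted p = 7.6e-05, and -2.55 without the library of experiment 3). At 120 h it was at 24.2, 32.3, 49.5 and 38.4 CPM, which overlaps 2iL (-0.47 ± 0.32, adjusted p = 0.233). The library of experiment 3 was the highest at both times. From 48 to 96 h Axin2 rose (1.74 ± 0.46, adjusted p = 0.00596), but without the 96 h library of experiment 3 the value was 0.98 (adjusted p = 0.111). From 96 to 120 h it missed the threshold (1.32 ± 0.35, adjusted p = 0.0502) and was higher in 4 of 4 experiments. That step was called with experiment as a block (1.40, adjusted p = 0.00263) and without the 96 h library of experiment 3 (2.07, adjusted p = 0.000158).

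Sp5 (chr2:70474923-70477729, plus strand) encodes a zinc finger transcription factor that is a direct target of beta-catenin. In 2iL it was at 99.5, 108, 141 and 108 CPM. At 24 h it was at 1.22, 2.83, 0 and 5.53 CPM, from 16 counts in all 4 libraries together. At 48 h it was at 1.56, 0.987, 3.05 and 1.84 CPM, from 13 counts. The fall from 2iL was 47.3-fold at 24 h (log2 fold change -5.56 ± 0.63, adjusted p = 1.15e-07) and 61.3-fold at 48 h (-5.94 ± 0.65, adjusted p = 1.11e-08), with no overlap between groups. Without the 24 h library of experiment 4, the fall at 24 h was 74.3-fold. Counts this low leave the size of these folds imprecise.

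The late return of Sp5 without 2iL was uneven between experiments. At 96 h it was at 0.459, 0.809, 33.6 and 6.49 CPM, so experiments 1 and 2 were still at the 48 h level while experiment 3 was far above it. At 120 h it was at 28.4, 25.3, 45.9 and 27.7 CPM, above every 24 and 48 h library and below every 2iL library (log2 fold change against 2iL -1.84 ± 0.42, adjusted p = 0.000474). The change from 48 to 96 h was called (2.47 ± 0.82, adjusted p = 0.029), and without the 96 h library of experiment 3 it was 0.54 (adjusted p = 0.707). It was also lost without the 48 h library of experiment 1, 2 or 4 (adjusted p = 0.0633 to 0.0823). From 96 to 120 h Sp5 was higher in 4 of 4 experiments (1.63 ± 0.50, adjusted p = 0.0799; 1.72 and adjusted p = 0.0229 with experiment as a block; 3.55 and adjusted p = 1.2e-05 without the 96 h library of experiment 3).

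Notum (chr11:120653788-120661175, minus strand) encodes a secreted enzyme that removes the lipid WNT proteins need to signal. It was at 4.35, 3.86, 7.89 and 10.8 CPM in 2iL and at 9.12, 5.18, 3.15 and 7.60 CPM at 24 h. These groups overlapped (log2 fold change -0.10 ± 0.51, adjusted p = 0.932), at the time when Axin2 and Sp5 were already low. The 48 h libraries were at 2.59, 0.987, 1.83 and 4.29 CPM (-1.46 ± 0.56 against 2iL, adjusted p = 0.0512). With experiment as a block, that change was called (-1.42, adjusted p = 0.0492). Notum was lowest late, with 5 counts over the 4 libraries at 96 h and 5 at 120 h. Against 2iL it fell by 11.3-fold at 96 h (-3.50 ± 0.67, adjusted p = 7.76e-05) and fell likewise at 120 h (-3.46 ± 0.67, adjusted p = 7.49e-05). Without the library of experiment 3, which holds most of these few counts, the values were -4.30 and -4.26. At 120 h Notum lay below every 2iL library while Axin2 overlapped 2iL. Notumos overlaps Notum on the other strand with 34 counts over all libraries, and since the use of strand in counting is not stated, reads of the pair cannot be told apart.

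Nkd1 (chr8:88521354-88594884, plus strand) encodes an intracellular antagonist that binds Dishevelled. It was low in 2iL, at 2.42, 1.29, 3.38 and 1.70 CPM, with 20 counts in the group. It had 10 counts at 24 h and 11 at 48 h, and these 3 groups overlapped. At 96 h it was at 7.80, 11.7, 40.6 and 12.2 CPM, and at 120 h at 37.7, 38.8, 77.0 and 64.3 CPM. All libraries at 96 and 120 h lay above all earlier ones. Against 2iL, Nkd1 rose by 7.82-fold at 96 h (log2 fold change 2.97 ± 0.48, adjusted p = 7.71e-06; 4.61-fold without the library of experiment 3) and by 23.5-fold at 120 h (4.56 ± 0.45, adjusted p = 6.7e-10). From 96 to 120 h it rose in 4 of 4 experiments (1.59 ± 0.34, adjusted p = 0.0148, and 2.35 without the 96 h library of experiment 3). That call was lost when any 1 of 5 libraries was left out, those of experiments 1, 2 and 4 at 96 h and of experiments 3 and 4 at 120 h (adjusted p = 0.0568 to 0.13).

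Lgr5 (chr10:115450311-115587780, minus strand) encodes a receptor for R-spondins, which strengthen WNT signalling, and marks stem cells of several adult tissues. It did not pass the filter. Its counts over 4 libraries were 4 in 2iL, 6 at 24 h, 3 at 48 h, 11 at 96 h, 12 at 120 h, 1 in 48 h + 2iL and 4 in 96 h + 2iL. The highest library, of experiment 3 at 120 h, had 2.70 CPM, and 8 of the 28 libraries had 0 counts. Fitted without the filter, Lgr5 was called in 0 of 14 comparisons (adjusted p = 0.415 to 1), so no change was detectable at this depth.

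After 24 h with 2iL returned, Axin2, Sp5 and Nkd1 were higher than before its return in every experiment, after either length of withdrawal. In 48 h + 2iL Axin2 was at 31.3, 45.8, 86.4 and 67.0 CPM, and in 96 h + 2iL at 66.9, 62.7, 52.1 and 63.3 CPM. Each of these libraries lay above all libraries of the matching withdrawn group. The rise was 13.4-fold after 48 h (log2 fold change 3.74 ± 0.42, adjusted p = 7.68e-08) and 4.24-fold after 96 h (2.09 ± 0.34, adjusted p = 0.00011). Without the 96 h library of experiment 3 the latter was 7.15-fold. All 96 h + 2iL libraries lay above the 120 h libraries of the same age, with a mean CPM 1.70 times as high. That difference was not called (adjusted p = 0.256), and 2 of 15 alternative fits called it. Neither returned group differed from 2iL by the test (0.21 ± 0.31, adjusted p = 0.739, and 0.29 ± 0.31, adjusted p = 0.48), with 95% intervals of -0.40 to 0.82 and -0.32 to 0.91.

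Sp5 had the largest response to return among the 9 genes tested, 92.8-fold after 48 h (log2 fold change 6.54 ± 0.64, adjusted p = 5.77e-09) and 12.9-fold after 96 h (3.69 ± 0.48, adjusted p = 2.54e-06). Without the 96 h library of experiment 3 the rise after 96 h was 49.2-fold (5.62, adjusted p = 2.68e-10). It was at 130, 148, 229 and 184.3 CPM in 48 h + 2iL and at 174, 173, 81.3 and 104 CPM in 96 h + 2iL. Within experiments, the log2 response after 96 h (with 1 CPM added) was 6.90, 6.59, 1.25 and 3.81. Experiment 3, the highest before return, was the lowest after it. All 96 h + 2iL libraries lay above the 120 h libraries of the same age (2.07 ± 0.42, adjusted p = 0.00329, and adjusted p = 0.104 in DESeq2).

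Notum regained its 2iL range. It was at 5.06, 4.63, 14.1 and 4.65 CPM in 48 h + 2iL and at 5.22, 5.36, 6.33 and 4.34 CPM in 96 h + 2iL. Both groups lay wholly above their withdrawn groups. The rise after 96 h was called (log2 fold change 3.19 ± 0.69, adjusted p = 0.00238), as was the difference from 120 h (3.14 ± 0.69, adjusted p = 0.00707). They were 3.98 and 3.94 without the 96 h or the 120 h library of experiment 3. The difference after 48 h was 1.56 ± 0.56 (adjusted p = 0.056). With experiment 3 left out it was 0.89 (adjusted p = 0.425). It was called in DESeq2 (1.59, adjusted p = 0.0424) and without the 48 h library of experiment 4 (1.98, adjusted p = 0.0398).

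Nkd1 ended above its 2iL level after either withdrawal. It was at 8.59, 7.15, 20.4 and 9.31 CPM in 48 h + 2iL, above every 2iL and 48 h library (4.98-fold above 2iL, log2 fold change 2.31 ± 0.51, adjusted p = 0.00236). This group overlapped 96 h, with a mean CPM 0.63 times as high. From 48 to 96 h without 2iL, Nkd1 rose by 11.4-fold (adjusted p = 1.99e-05), and by 6.74-fold without the 96 h library of experiment 3. With no withdrawn group of the age of 48 h + 2iL, time and 2iL cannot be told apart there. In 96 h + 2iL it was at 137, 130, 124 and 122 CPM, above every library of the other 6 groups. The rise over 96 h was 7.09-fold (2.83 ± 0.34, adjusted p = 9.59e-07), and 12.0-fold without the 96 h library of experiment 3. The excess over 2iL was 5.79 ± 0.45 on the log2 scale (adjusted p = 6.54e-12). The 96 h + 2iL group also lay above 48 h + 2iL by 11.1-fold (3.48 ± 0.36, adjusted p = 3.49e-08). It lay above 120 h by 2.35-fold (1.24 ± 0.31, adjusted p = 0.0217). The difference from 120 h was higher in 4 of 4 experiments but lost the call without the 120 h or the 96 h + 2iL library of experiment 1 or 2 (adjusted p = 0.0661 to 0.107). In 96 h + 2iL, where the naive and neural marker sums of experiment 3 differed from the others, Nkd1 differed little between experiments (SD 6.85 CPM).

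**Figure D3:**
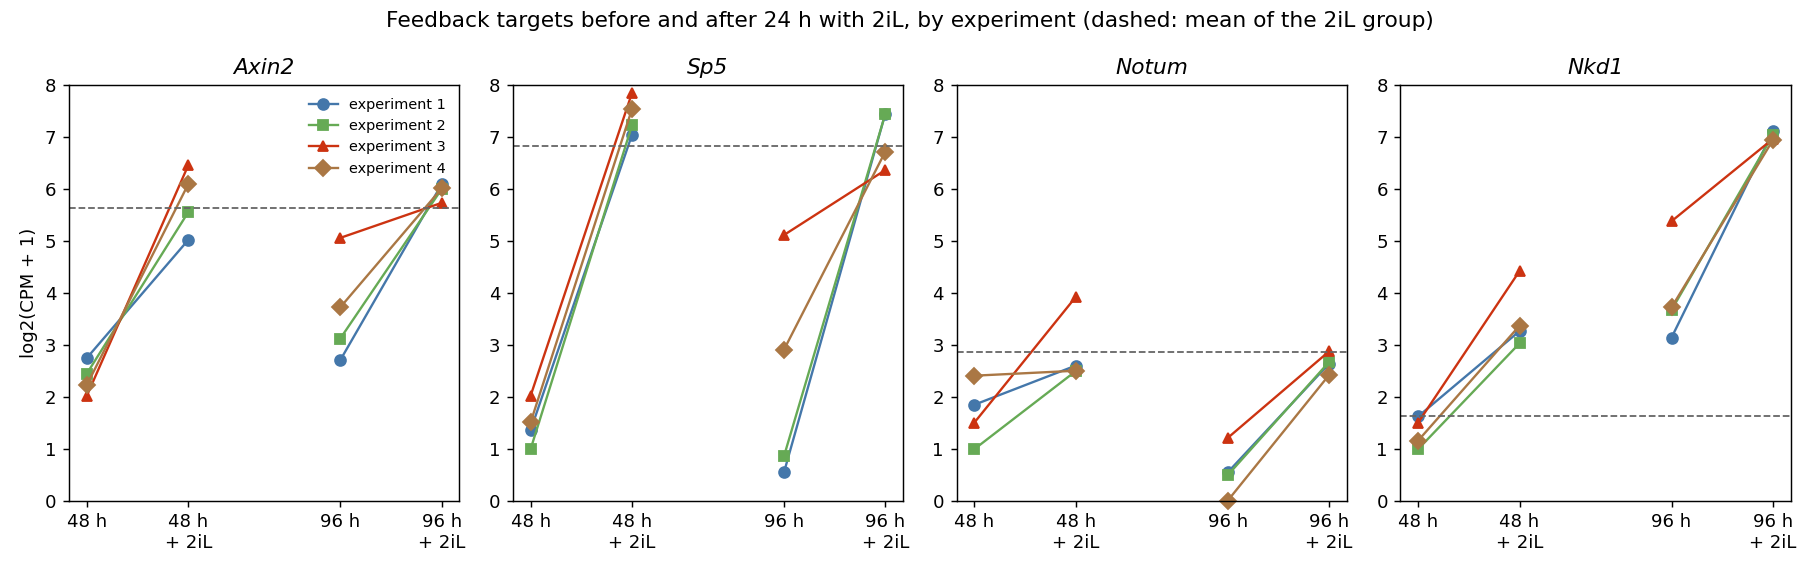
Levels of the feedback targets as log2(CPM + 1) (vertical axis) before and after 24 h with 2iL (horizontal axis), with 1 line per experiment and the mean of the 2iL group dashed. Axin2 and Sp5 end near the dashed line after either withdrawal, and Nkd1 ends far above it after 96 h.

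Whether the response to 2iL differed with the length of withdrawal was tested as the difference between the 2 responses. It was called for 0 of the 9 genes, where 0.921% of all genes tested were called. At an unadjusted p under 0.05, 5 passed (Axin2, Sp5, Lef1, Tcf7l1 and Ctnnb1), where 11.1% of all genes tested did. With experiment 3 left out, 3 passed (Lef1, Notum and Tcf7l1; 10.3% of all genes). DESeq2 called 0 and edgeR with experiment as a block called 1, Lef1 (1.17, adjusted p = 0.0111). For Axin2 the response after 96 h was smaller by 1.65 ± 0.56 on the log2 scale (adjusted p = 0.173), and for Sp5 by 2.84 ± 0.91 (adjusted p = 0.146), starting from higher levels at 96 h. Without the 96 h library of experiment 3 these differences were -0.90 (adjusted p = 0.481) and -0.92 (adjusted p = 0.717). For Lef1 it was larger by 1.08 ± 0.31 (adjusted p = 0.0946).

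Lef1 (chr3:131110471-131224356, plus strand) encodes a TCF/LEF factor that mostly activates with beta-catenin and is itself a WNT target in many tissues. In 2iL it was at 36.2, 37.8, 81.5 and 71.5 CPM, with experiments 3 and 4 above 1 and 2, and at 24 h it was at 40.7, 52.3, 60.5 and 70.5 CPM. At 48 h it was at 149, 134, 156 and 158 CPM, above all libraries of both earlier groups. It rose against 2iL by 2.62-fold (log2 fold change 1.39 ± 0.23, adjusted p = 1.84e-05) and against 24 h by 2.67-fold (1.42 ± 0.23, adjusted p = 0.000149). Lef1 was thus high at the time when Axin2 and Sp5 were at their lowest.

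At 96 h Lef1 was at 92.2, 80.4, 106 and 116 CPM, below every 48 h library (-0.60 ± 0.22 against 48 h, adjusted p = 0.0504, and -0.61 with adjusted p = 0.0116 with experiment as a block). It was at 119, 127, 114 and 116 CPM at 120 h, still above 2iL (1.06 ± 0.23, adjusted p = 0.000252). In 48 h + 2iL the experiments split, at 76.3 and 77.4 CPM in experiments 1 and 2 and 185 and 140 CPM in experiments 3 and 4. The same experiments were the higher ones in 2iL. Within each experiment Lef1 in 48 h + 2iL was above 2iL by 0.96 to 1.17 on the log2 scale with 1 CPM added (1.08 ± 0.23, adjusted p = 0.00165). In 96 h + 2iL it reached 168, 179, 166 and 158 CPM, above every 2iL, 96 h and 120 h library. The difference from 120 h was not called (mean CPM 1.41 times as high, adjusted p = 0.291), and 2 of 15 alternative fits called it. The rise over 96 h was 0.77 ± 0.22 (adjusted p = 0.022) and was lost without the 96 h library of experiment 1 or 2 (adjusted p = 0.0606 and 0.0844). The excess over 2iL was 1.56 ± 0.23 (adjusted p = 1.54e-06).

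Tcf7l1 (chr6:72626378-72789254, minus strand) encodes the main TCF repressor of embryonic stem cells. In 2iL it was at 140, 131, 169 and 192 CPM. It rose at 24 h to 266, 222, 306 and 294 CPM, above every 2iL library (log2 fold change 0.78 ± 0.22, adjusted p = 0.0118), and was at 200 to 230 CPM at 48 h (0.45 ± 0.22 against 2iL, adjusted p = 0.132). At 96 h the experiments were at 208, 250, 172 and 243 CPM. At 120 h they spread from 86.9 CPM in experiment 3 and 117 CPM in experiment 4 to 179 and 202 CPM in experiments 2 and 1.

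With 2iL returned after 96 h, Tcf7l1 was at 121, 108, 48.2 and 134 CPM, below all 96 h libraries. It fell by 2.13-fold (log2 fold change -1.09 ± 0.22, adjusted p = 0.00128) and was lower in 4 of 4 experiments. It overlapped the 120 h group of the same age, with a mean CPM 0.70 times as high. That difference was not called (adjusted p = 0.279) and was negative in 3 of 4 experiments. Without 2iL, Tcf7l1 was also lower at 120 h than at 96 h in 4 of 4 experiments, and this was not called (adjusted p = 0.163). Against 2iL, Tcf7l1 in 96 h + 2iL was lower as well (-0.62 ± 0.22, adjusted p = 0.0239). Within experiments 1 to 4 the log2 difference was -0.21, -0.28, -1.79 and -0.51 (with 1 CPM added). It was largest in experiment 3, where the naive marker sum was also lowest. Without the 96 h + 2iL library of experiment 3 the value was -0.39 and the call was lost (adjusted p = 0.132). The call was also lost without the 2iL library of experiment 3 or 4 (adjusted p = 0.0569 and 0.0744). The difference from 48 h + 2iL was -0.76 ± 0.22 (adjusted p = 0.0104), and -0.53 (adjusted p = 0.0627) without the 96 h + 2iL library of experiment 3. In 48 h + 2iL, at 187, 196, 133 and 181 CPM, Tcf7l1 lay below every 48 h library, a difference that was not called (-0.30 ± 0.22, adjusted p = 0.401).

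Tcf7 (chr11:52252371-52283014, minus strand), which encodes the TCF1 protein, was at 15, 11.6, 18.4 and 14.2 CPM in 2iL and fell at 24 h to 7.29, 2.36, 10.7 and 6.91 CPM. All 24 h libraries lay below all 2iL libraries (log2 fold change -1.15 ± 0.33, adjusted p = 0.015). The call was lost without the 24 h library of experiment 2 (-0.84, adjusted p = 0.0777) or the 2iL library of experiment 3 (-1.03, adjusted p = 0.0529). No other comparison called Tcf7. A630014C17Rik, with 33 counts over all libraries, overlaps it on the other strand. Tcf7 in 48 h + 2iL, at 13.1 to 24.5 CPM, lay above all 48 h libraries, at 11.4 to 12.9 CPM, and in 96 h + 2iL, at 14.6 to 23.3 CPM, it overlapped the 96 h libraries. The differences on return were 0.69 ± 0.30 after 48 h (adjusted p = 0.124) and 0.80 ± 0.30 after 96 h (adjusted p = 0.093).

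Tcf7l2 (chr19:55741820-55933654, plus strand), which encodes the TCF4 protein, ranged from 31.1 to 77.7 CPM over the 28 libraries, and the ranges of all groups overlapped that of 2iL, at 44.9 to 77.7 CPM. Its value nearest to a call was the difference of 48 h + 2iL from 2iL, at -0.69 ± 0.24 (adjusted p = 0.0541). With experiment as a block that was called (-0.72, adjusted p = 0.0207), as was 48 h against 2iL (-0.59, adjusted p = 0.0379). Ctnnb1 (chr9:120929216-120960507, plus strand) encodes beta-catenin, whose amount is set mainly by protein degradation, which RNA does not show. Its transcript lay between 311 and 503 CPM in all libraries, and Ulk4, with 115 counts in all, overlaps it on the other strand. It rose by 1.25-fold at 96 h (log2 fold change 0.32 ± 0.12, adjusted p = 0.0288) and by 1.29-fold at 120 h (0.37 ± 0.12, adjusted p = 0.0109). The 96 h call was lost without the 2iL library of experiment 1 or 2 or the 96 h one of experiment 3 or 4 (adjusted p = 0.0732 to 0.113). At 24 h and 48 h, when Axin2 and Sp5 were lowest, Ctnnb1 differed from 2iL by 0.17 ± 0.12 and 0.02 ± 0.12.

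Over the 28 libraries log2 CPM of Axin2 and Sp5 correlated with Pearson's r of 0.94, and their deviations from the group means with r of 0.65. For Sp5 and Nkd1 these values were 0.52 and 0.74. Tcf7l1 ran against Axin2 (-0.68) and Nkd1 (-0.70) over libraries, and less so in the deviations (-0.25 and -0.43). With Tcf7l2 its r was -0.39 over libraries and -0.59 for the deviations. Libraries share groups, experiments and total depth, so these values describe the set and carry no test.

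Ratios within a library do not depend on its scaling. The log2 ratio of Nkd1 to Axin2 counts (0.5 added to each) averaged -4.39 ± 0.41 in 2iL and 1.07 ± 0.13 in 96 h + 2iL (SD, n = 4), with no overlap, although Axin2 itself was in the same range in both. In 48 h + 2iL it averaged -2.34 ± 0.46. The log2 ratio of Lef1 to Tcf7l1, an activator-type to a repressor-type factor, moved from -1.55 ± 0.40 in 2iL to -2.29 ± 0.30 at 24 h and -0.53 ± 0.07 at 48 h. It was 0.81 ± 0.68 in 96 h + 2iL, where experiment 3 gave 1.78 and the others 0.23 to 0.73, all above the 2iL range of -1.94 to -1.05.

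**Figure D4:**
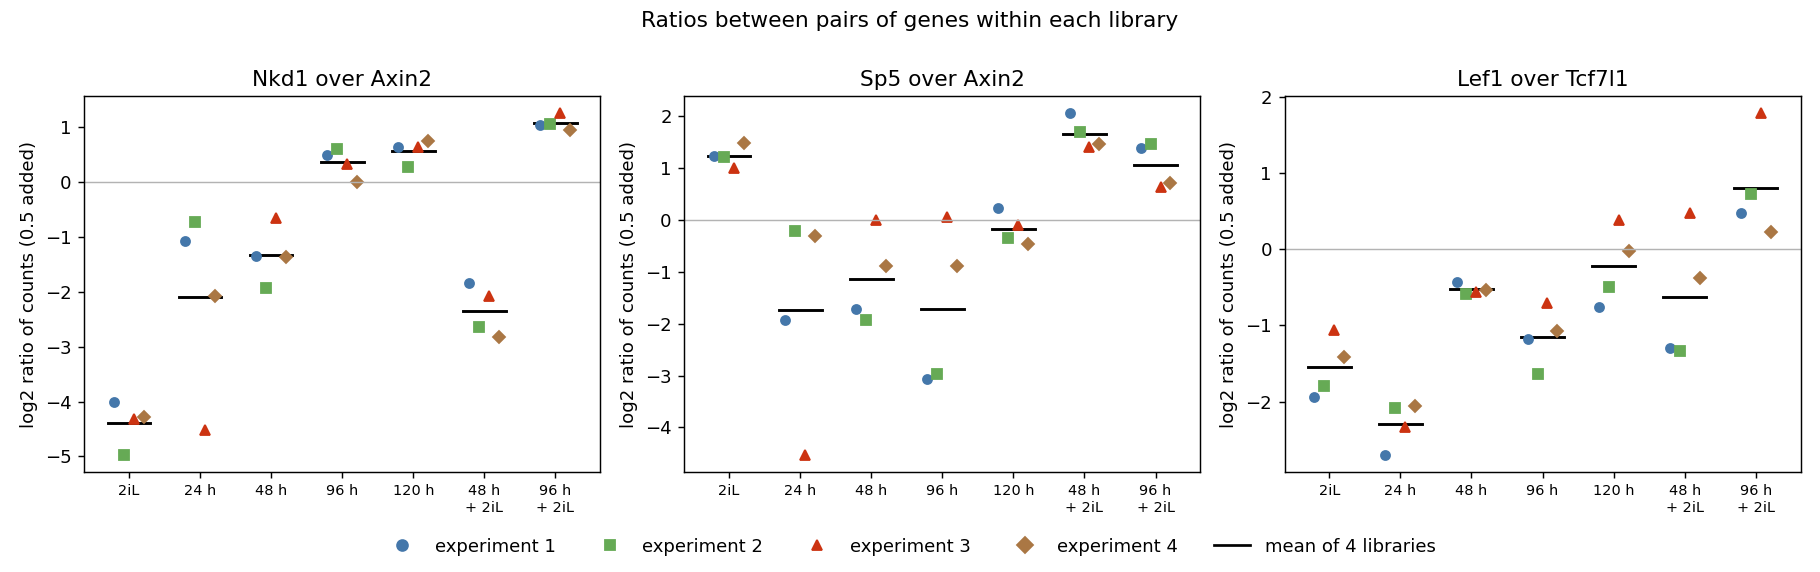
Log2 ratios of counts between pairs of genes within each library (vertical axis, 0.5 added to each count) in the 7 groups (horizontal axis), with 1 symbol per experiment and a bar at the group mean. The ratio of Nkd1 to Axin2 is lowest in 2iL (mean -4.39) and highest in 96 h + 2iL (mean 1.07).

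The genes most alike in pattern were taken as the 5 with the highest Pearson's r of log2 CPM over the 7 group means, among 8977 genes that reached 10 CPM in a group. For Axin2 they were Lhfpl2 (r = 0.984), Nkx1-2 (0.984), Jag1 (0.983), Cxxc5 (0.980) and Patz1 (0.980). For Sp5 they were Asap1 (0.989), Slc35c2 (0.987), Lhfpl2 (0.983), Lrrc45 (0.979) and Patz1 (0.979). Nkx1-2, a homeobox gene, was at 22.2 CPM in 2iL, 0.909 CPM at 24 h and 82.5 CPM in 96 h + 2iL, while Asap1 moved only between 41.2 and 65.5 CPM. Likeness of pattern thus does not mean likeness of size. For Lef1, 4 of them were Pacs1 (0.974), Anapc1 (0.951), Pebp1 (0.949) and Hif1an (0.941). For Tcf7l1 they were Hist1h4i (0.989), Sertad1 (0.984), Sall4 (0.973), Abi3 (0.973) and Rraga (0.967).

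The share of all genes called, given above, was 16% at 24 h and 47.3% at 120 h against 2iL, 14.9% on return after 48 h and 9.24% after 96 h, and the counts of the lists that follow are read beside it. Of 8 tested of 11 listed other direct targets of beta-catenin in embryonic stem cells, 4 fell and 0 rose at 24 h against 2iL (median log2 fold change -1.99, beside 0.011 over all genes). T, a mesoderm factor, went from 173 counts to 1 in the 4 libraries together, and Cdx2, a caudal-type homeobox factor, went from 118 to 1. Cdx1 fell as well (-4.34 ± 0.74, adjusted p = 6.55e-05). In 48 h + 2iL against 48 h 5 rose and 0 fell (median 4.17, beside -0.00046), and in 96 h + 2iL against 96 h 7 rose and 0 fell (median 2.85, beside 0.00092). Cdx2 reached 37.4 ± 25.2 CPM and 96.0 ± 47.0 CPM in these groups, against 13.4 ± 4.62 CPM in 2iL. In 96 h + 2iL against 120 h, of the same age, 1 rose and 0 fell (Cdx2, median 0.45, beside 0.0078), where 2.63% of all genes were called. Some targets also rose without 2iL. From 96 to 120 h 4 rose and 0 fell (median 2.02, beside -0.0093), where 1.14% of all genes were called. At 120 h against 2iL 4 rose and 1 fell (median 1.13, beside 0.010), with Fgf8 (2 counts in 2iL and 141 at 120 h, adjusted p = 3.2e-05) and Sp8 (4 and 159 counts, adjusted p = 4.03e-07) foremost.

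Genes of the naive state reported to be repressed by Tcf7l1 (Nanog, Tbx3, Esrrb, Nr0b1, Tfcp2l1 and Klf2) fell in 4 of 6 cases and rose in 1 at 24 h (median -1.37, beside 0.011), when Tcf7l1 was highest. At 120 h all 6 fell (median -4.64, beside 0.010). In 48 h + 2iL against 48 h 5 rose and 0 fell (median 2.52), and in 96 h + 2iL against 96 h 4 rose and 0 fell (median 1.73). Against 2iL, 96 h + 2iL had all 6 lower (median -2.52, beside 0.013), where 41.0% of all genes were called. Esrrb was at 36.0 ± 24.2 CPM in 96 h + 2iL and at 195 ± 28 CPM in 2iL.

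Upstream, the receptors and co-receptors changed in both directions. At 120 h against 2iL 7 of 13 tested (15 listed) rose and 1 fell (median 0.80, beside 0.010), led by Ror1 (4.20 ± 0.74), Fzd2 (4.19 ± 0.31) and Fzd3 (4.06 ± 0.49). In 96 h + 2iL against 96 h 3 rose and 4 fell (median -0.41, beside 0.00092). Fzd10 ran with Axin2, at 41.2 ± 5.35 CPM in 2iL, 6.98 ± 3.97 CPM at 24 h and 69.7 ± 11.5 CPM in 96 h + 2iL, and Fzd7 ran the other way, at 7.49 ± 3.13, 23.2 ± 11.3 and 10.02 ± 1.21 CPM. In the destruction complex and its kinases, 13 of 13 tested, 2 fell and 0 rose at 24 h (median -0.08, beside 0.011), a share near that of all genes, Csnk1e (-1.09 ± 0.23, adjusted p = 0.00109) and Gsk3b (-0.78 ± 0.13, adjusted p = 6.6e-05). At 120 h 3 rose and 1 fell (median 0.08, beside 0.010), a share below that of all genes, with Apc2, an Apc homologue, foremost (4.398 ± 0.70). Of the 3 Dishevelled genes, Dvl1 rose in 96 h + 2iL against 2iL (0.88 ± 0.30, adjusted p = 0.017; median of the list 0.058, beside 0.013).

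Among 4 tested of 12 secreted inhibitors, Frzb (2 counts in 2iL and 331 at 120 h, adjusted p = 8.05e-10) and Sfrp2 (2.48 ± 0.34, adjusted p = 3.53e-07) rose at 120 h against 2iL and Sfrp1 fell (-0.47 ± 0.19, adjusted p = 0.0452; median of the list 1.01, beside 0.010). After return of 2iL, Sfrp1 was higher by 1.17 ± 0.23 than at 48 h and lower by -0.80 ± 0.20 than at 96 h. The difference between these 2 changes was itself called (-1.97 ± 0.31, adjusted p = 0.000956). In 96 h + 2iL it was also below 120 h, of the same age (-1.11 ± 0.20, adjusted p = 0.00114). From 48 to 96 h without 2iL Sfrp1 rose by 2.29 ± 0.22 (adjusted p = 1.46e-08). With no withdrawn group of the age of 48 h + 2iL, time and 2iL cannot be told apart there. Of 7 tested of 13 other feedback genes and agonists, 3 rose and 1 fell at 120 h (median 0.64, beside 0.010). Nkd2, the paralogue of Nkd1, rose by 4.998 ± 0.78 there (adjusted p = 2.73e-06). Its counts were 2 in 2iL, 15 at 24 h, 30 at 48 h and 93 at 96 h.

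Nuclear cofactors, 14 tested of 16 listed, rose in 3 cases and fell in 1 at 24 h (median 0.23, beside 0.011) and rose in 6 with 0 falling at 120 h (median 0.42, beside 0.010), where the share called lay below that of all genes. Tle4, a Groucho co-repressor that binds TCF proteins, rose at 24 h from 145 ± 12.9 to 297 ± 64.5 CPM (1.04 ± 0.14, adjusted p = 3.51e-06). It fell on return of 2iL, to 129 ± 23.7 CPM after 48 h and 79.1 ± 9.90 CPM after 96 h, so that Tle4 and Tcf7l1 were both at their lowest mean in 96 h + 2iL. Of the 7 adhesion partners of beta-catenin, 2 rose and 2 fell at 120 h against 2iL (median -0.16, beside 0.010). Ctnna2, which encodes an alpha-catenin, rose from 0 counts in 2iL to 61 at 120 h. The next in size were Cdh2, which encodes N-cadherin (3.93 ± 0.41, adjusted p = 2.16e-09), and Jup, which encodes plakoglobin, a close relative of beta-catenin (-2.73 ± 0.39, adjusted p = 7.66e-07).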

How the data were processed

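Per the submitters' processing notes, bcl2fastq, STAR 2.6.0a and HTSeq were used with mm10, and the role of each tool is not given in the sources used here. The authors deposited raw counts per gene for each library (31053 genes) and 1 table of CPM for the series (30386 genes). In 28 of 28 columns the deposited CPM equalled the CPM computed from the deposited counts within a tolerance of 1e-06, and no 2 libraries were identical. Reads aligned to more than 1 place, 52.3% to 60.1% of those listed, were not counted, and 6.68% to 8.58% fell in no gene and were left out. Counts were tested with edgeR 4.0.16 in R 4.3.3. Its filterByExpr (minimum count 10, minimum total 15, by group) kept 11080 genes, TMM gave the scaling, and 1 quasi-likelihood model of the 7 group means covered the 28 libraries. All 14 comparisons were two-sided with Benjamini-Hochberg adjustment over all genes tested. The SE is the absolute log2 fold change divided by the square root of F and is approximate at low counts. CPM in the text are counts scaled by TMM. The edgeR fit was tried on simulated counts for a single comparison, with the same spread for all genes and no effect of experiment. Such data do not check the calls given here.

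All 10 genes are described, and from each pathway list at most 3 called genes per comparison, those with the largest change. Of the genes most alike in pattern to Lef1, 1 is not reported here. The genes and lists were chosen with earlier results of these data known. Alternatives were DESeq2 1.42.0, other size factors, no filter, only the compared groups, experiment as a block, each library left out and, chosen after seeing the data, experiment 3 left out. The titles carry the experiment number, which was read as a shared experiment. Over 84 pairs of libraries of the same experiment, deviations from the group means correlated with a median r of 0.068 (22 pairs above 0.1), against -0.027 over 252 other pairs, and 24 of 28 libraries were closest to their own experiment. The labels do not say that replicates came from separate cultures, so p-values measure the spread between these samples. Positions of genes come from GENCODE M21 (GRCm38), and promoter windows are RefSeq's on GRCm38.p6.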

Additional observations from a re-analysis of the deposited data

Results flagged for a closer look

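In 7 of 70 sets of 4 libraries (10 genes in 7 groups) 1 library lay apart from the other 3 by Dixon's ratio at its 95% critical value. Chance gives about 1 in 20 where values are independent and normally distributed. These sets share libraries and some hold few counts, so 7 of 70 cannot be read against that rate. Of these, 4 were libraries of experiment 3: Sp5 at 120 h (45.9 CPM), Notum in 48 h + 2iL (14.1 CPM), and Nkd1 at 96 h (40.6 CPM) and in 48 h + 2iL (20.4 CPM). In each the library of experiment 3 was the highest of its group. The others were Tcf7 at 48 h in experiment 1 (11.4 CPM, the lowest), Tcf7l2 at 120 h in experiment 1 (47.4 CPM, the lowest) and Lgr5 in 48 h + 2iL in experiment 2 (0.421 CPM, the only count of that group). At 96 h the neural marker sum of experiment 3 was also the highest, at 185 CPM, and its part in these values was not tested.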

How the results depend on the processing

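Of 1947 values of 126 log2 fold changes under the alternatives, 1840 kept their side of the threshold, 34 lost and 73 gained a call. The sign differed in 70 values of 23 fold changes, none of them called in either fit. Counts below are of genes called in all and of the genes described here among those each fit tested, which were 9 unless stated. Without the filter on low counts, 10 described genes and 21039 in all were tested. At 48 h against 2iL 5 described genes were called (14.9% of all genes tested), and 4 from 96 to 120 h (653 in all, 3.10%). In 96 h + 2iL 6 were called against 120 h (493 in all, 2.34%). In 48 h + 2iL 4 were called against 2iL (6.84%), and 4 for the difference of responses (321 in all, 1.53%). With only the compared groups, the counts were 5 of 7 at 48 h against 2iL (30.8% of all genes tested) and 4 of 9 in 48 h + 2iL against 2iL (13.6%). From 96 to 120 h they were 0 of 8 (0 in all by edgeR, with 1684 genes and 5 of those described at an unadjusted p under 0.05). DESeq2 fitted to all groups called 284 genes there. With only the compared groups, 96 h + 2iL against 120 h had 115 genes in all. From 96 to 120 h, library totals, RLE size factors and DESeq2 each called 2 of the described genes (1.16%, 1.09% and 2.56% of all genes tested). For the difference of responses DESeq2 called 168 genes in all. Without experiment 3, 445 genes and 3 of those described were called from 96 to 120 h, and 1 described gene for the difference of responses.

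With the replicate block on experiment, the pairing moved the counts of described genes to 5 at 48 h against 2iL (30.6% of all genes tested) and 6 from 48 to 96 h (24.8%). They were 3 from 96 to 120 h (580 genes in all, 5.23%) and 3 in 48 h + 2iL against 2iL (14.6%). In 96 h + 2iL against 48 h + 2iL 3 were called (27.2%), and 1 for the difference of responses (194 genes in all, 1.75%). Lef1 was the gene added between the returned groups (0.56, adjusted p = 0.0178). The block changed no other call.

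Leaving out 1 library at a time, the genes called ranged from 1376 to 1770 at 24 h (3 to 4 described), 2606 to 2930 at 48 h (3 to 5), 4078 to 4381 at 96 h (5 to 6) and 4786 to 5079 at 120 h (5 to 5), all against 2iL. They ranged from 424 to 628 from 24 to 48 h (1 to 2), 1595 to 2300 from 48 to 96 h (2 to 4) and 0 to 686 from 96 to 120 h (0 to 3). On return they ranged from 1290 to 1357 after 48 h (3 to 4), 658 to 1323 after 96 h (5 to 6) and 158 to 450 for 96 h + 2iL against 120 h (2 to 3). Against 2iL they ranged from 759 to 1266 in 48 h + 2iL (2 to 3) and 3912 to 4495 in 96 h + 2iL (2 to 3). Between the returned groups they ranged from 1916 to 2704 (1 to 3), and for the difference of responses from 49 to 136 (0 to 1). The cause of these changes was not tested.

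At 120 h against 2iL, scaling by library totals moved the median log2 fold change over all genes by 0.12. It moved the share of calls that rose from 53.7% to 64.8% from 48 to 96 h, from 52.4% to 66.4% from 96 to 120 h and from 49.0% to 38.6% for the difference of responses. With the shorter motif 2 of 8 genes had a match (18.2% of all genes with a window), against 1 with the longer (4.29%). Depth limits Lgr5, Sp5 at 24 and 48 h, Notum from 48 to 120 h, and Nkd1 up to 48 h, each with at most 20 counts in a group.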
